A study of Drosophila melanogaster with 18 samples.

Results

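The transcripts described here are those of 3 genes of female meiosis, c(2)M, c(3)G and nod, in Drosophila melanogaster larvae of the third instar that ectopically expressed mammalian DNMT3L for 1 to 5 generations. They were taken by their gene symbols in the annotation of the array, a Gene ST design for Drosophila made by Affymetrix, and each was represented by 1 probe set, so that 3 of the 16322 probe sets on the array were followed. Of all probe sets, 2392 carried 1 gene symbol, for 2249 genes in all. Expression had been profiled on 18 arrays, with 2 arrays for each of 9 groups of larvae.

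Tub-3L G1, Tub-3L G2, Tub-3L G4, Tub-3L G5 and Tub-3L G5P larvae carried the DNMT3L transgene together with a Tubulin-GAL4 driver, which is active in most tissues, in generations 1, 2, 4 and 5. Tub-3L G5P were the larvae of generation 5 with the melanotic tumor phenotype. UAS-3L* G20* larvae descended from the driver line after the driver had been crossed out. The label of this group reads Tub-3L G20* in its title and larvae of generation 5 without the driver in its description, so that its genotype and generation are not settled, and the name from the study is used. UAS-3L G5 and UAS-3L G1 larvae carried the transgene without a driver in generations 5 and 1, and w1118 is the strain without the transgene. All other groups were compared with UAS-3L G1, as in the study. RNA came from pools of whole larvae. The 2 pools of a group are labelled as biological replicates, but no separate crosses are named, and p-values therefore measure the spread between these pools.

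The synaptonemal complex is the protein zipper that holds homologous chromosomes together along their length in the prophase of meiosis, and in Drosophila it is built in oocytes but not in spermatocytes. c(3)G encodes its transverse filament, which spans the gap between the homologs, and c(2)M encodes a component of the lateral element to which the filament is anchored. nod encodes a kinesin-like protein that binds chromosome arms and keeps chromosomes that did not cross over in place on the oocyte spindle. Meiotic prophase is best known from the germarium of the ovary, where the germline also makes the maternal products that are loaded into the egg.

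Signals are given on a log2 scale, after normalisation by RMA at the level of genes, so that a difference of 1 is a change of 2-fold. The arrays had medians between 6.17 and 6.39 and lower quartiles between 4.16 and 4.57. Differences between groups were tested with limma over all probe sets, and p-values were adjusted with the Benjamini-Hochberg method. A gene is said to have risen or fallen when its adjusted p was under 0.05, and is called misregulated when it also passed a threshold of 2-fold. A difference between 2 groups had a standard error (SE) of 0.17 for c(2)M, 0.24 for c(3)G and 0.16 for nod on the log2 scale.

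All 3 genes were misregulated upwards against UAS-3L G1 in Tub-3L G5 (13% of all probe sets were) and in Tub-3L G5P (15.2%). Of the 3, c(2)M and nod were already misregulated in Tub-3L G4 (7.54%), and none was misregulated in Tub-3L G1 or Tub-3L G2. All 3 had their highest signal in the larvae with melanotic tumors. In UAS-3L* G20*, described in the study as larvae without the driver, all 3 were near the level of the UAS-3L larvae. The plot of signals on every array shows this course for each gene.

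**Figure D1:**
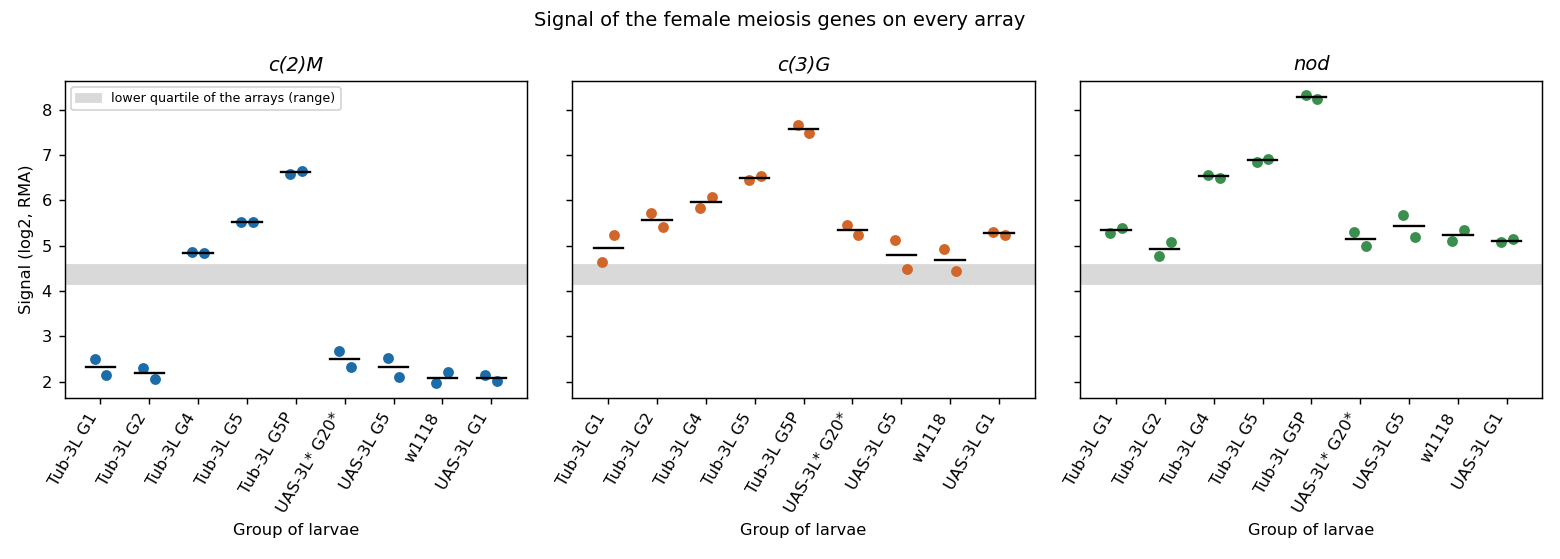
Signal of c(2)M, c(3)G and nod on each of the 18 arrays, on the log2 scale of RMA, with the larval groups along the horizontal axis. Points are arrays, black bars are group means (n = 2 arrays), and the grey band is the range of the lower quartile of the arrays, 4.16 to 4.57. The 3 genes were highest in Tub-3L G5P, and c(2)M lay below the band in the 6 groups other than Tub-3L G4, G5 and G5P.

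c(2)M, the gene of the lateral element, was near the floor of the arrays in 6 of the 9 groups. Its log2 signal was 2.50 and 2.15 in Tub-3L G1, 2.29 and 2.07 in Tub-3L G2, 4.86 and 4.83 in Tub-3L G4, 5.52 and 5.51 in Tub-3L G5, and 6.58 and 6.66 in Tub-3L G5P, against 2.14 and 2.02 in UAS-3L G1. It was 2.67 and 2.33 in UAS-3L* G20*, 2.53 and 2.10 in UAS-3L G5, and 1.96 and 2.21 in w1118. The arrays of Tub-3L G4, G5 and G5P were thus all above every array of the other 6 groups and did not overlap with each other, while those 6 groups lay together between 1.96 and 2.67. The share of all probe sets with such a separation was not counted.

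Against UAS-3L G1, the difference of c(2)M was 2.77 in Tub-3L G4, or 6.80-fold (adjusted p = 9.05e-08), 3.44 in Tub-3L G5, or 10.8-fold (adjusted p = 5.17e-09), and 4.54 in Tub-3L G5P, or 23.2-fold (limma, adjusted p = 2.27e-10). In the 6 lower groups the gene was among the dimmest probe sets of its array, at percentile 1.49 to 6.39 of all probe sets. A signal so close to the floor of the array leaves the size of the fold uncertain. With signals floored at the lower quartile of each array, a setting chosen after the data were seen, the difference from UAS-3L G1 was 0.49 in Tub-3L G4 (adjusted p = 5.19e-07), which is short of 2-fold, 1.16 in Tub-3L G5 (adjusted p = 1.60e-10) and 2.26 in Tub-3L G5P (adjusted p = 2.96e-13). These are below the floored differences of c(3)G (0.69, 1.22 and 2.30) and nod (1.42, 1.77 and 3.16) in the same groups, whereas the unfloored differences of c(2)M are above them, so that the size of the change cannot be ranked between c(2)M and the other genes. In Tub-3L G5P the signal stood near the middle of the array, at percentile 54.3 to 55.2.

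c(3)G, the gene of the transverse filament, was above or near the lower quartile of the arrays in every group. Its log2 signal was 4.65 and 5.23 in Tub-3L G1, 5.72 and 5.41 in Tub-3L G2, 5.83 and 6.08 in Tub-3L G4, 6.44 and 6.54 in Tub-3L G5, and 7.65 and 7.48 in Tub-3L G5P, against 5.31 and 5.23 in UAS-3L G1. It was 5.45 and 5.24 in UAS-3L* G20*, 5.12 and 4.49 in UAS-3L G5, and 4.93 and 4.44 in w1118. Both arrays of each Tub-3L group from G2 on were above both arrays of UAS-3L G1. The same held for 33.6% of all probe sets in Tub-3L G2, 34.7% in Tub-3L G4, 41.2% in Tub-3L G5 and 40.9% in Tub-3L G5P. The arrays of Tub-3L G2 overlapped with the range of UAS-3L* G20*, and the 2 arrays of Tub-3L G1, UAS-3L G5 and w1118 lay farther apart than those of the other groups.

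The difference of c(3)G from UAS-3L G1 was 0.30 in Tub-3L G2 (adjusted p = 0.381) and 0.69 in Tub-3L G4, or 1.61-fold (limma, adjusted p = 0.0343). The value in Tub-3L G4 is short of 2-fold, and its adjusted p was 0.0788 with each array centred on its median, 0.0955 after quantile normalisation and between 0.0572 and 0.173 when any 1 of the 4 arrays was left out. In Tub-3L G5 the difference was 1.22, or 2.33-fold (adjusted p = 7.76e-04), and in Tub-3L G5P it was 2.30, or 4.91-fold (adjusted p = 3.04e-06).

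nod, the gene of the chromosome arm kinesin, had a log2 signal of 5.27 and 5.39 in Tub-3L G1, 4.78 and 5.08 in Tub-3L G2, 6.55 and 6.50 in Tub-3L G4, 6.84 and 6.92 in Tub-3L G5, and 8.31 and 8.23 in Tub-3L G5P, against 5.08 and 5.14 in UAS-3L G1. It was 5.29 and 4.99 in UAS-3L* G20*, 5.69 and 5.19 in UAS-3L G5, and 5.11 and 5.35 in w1118. As for c(2)M, the arrays of Tub-3L G4, G5 and G5P were above all others and did not overlap with each other, a separation whose share over all probe sets was not counted.

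Against UAS-3L G1, nod differed by 1.42 in Tub-3L G4, or 2.67-fold (adjusted p = 2.26e-05), by 1.77 in Tub-3L G5, or 3.42-fold (adjusted p = 1.51e-06), and by 3.16 in Tub-3L G5P, or 8.96-fold (limma, adjusted p = 4.99e-09). In Tub-3L G5P its signal was at percentile 78.2 to 79.4 of the array. In UAS-3L G1 both arrays had it at percentile 34.3 or 34.4, so that nod, unlike c(2)M, was not near the floor in the larvae without driver.

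These counts have to be read against the size of the misregulation in the same comparisons. In Tub-3L G4, 2 of the 3 genes were misregulated upwards, where 7.54% of all 16322 probe sets were. In Tub-3L G5 it was 3 of 3 genes against 13% of probe sets, and in Tub-3L G5P 3 of 3 against 15.2%. The differences of c(3)G and nod were larger than those of 96.9% and 98.3% of all probe sets in Tub-3L G5P, and larger than those of 90.4% and 95.5% in Tub-3L G5. c(2)M is given no such rank, since it was near the floor in UAS-3L G1. The median difference of all probe sets was 0.02 in Tub-3L G5 and 0.01 in Tub-3L G5P. For all 3 genes, both arrays of each of these groups lay above both arrays of UAS-3L G1, as they did for 34.7% of probe sets in Tub-3L G4, 41.2% in Tub-3L G5 and 40.9% in Tub-3L G5P. The 2 arrays of UAS-3L G1 are shared by these comparisons.

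**Figure D2:**
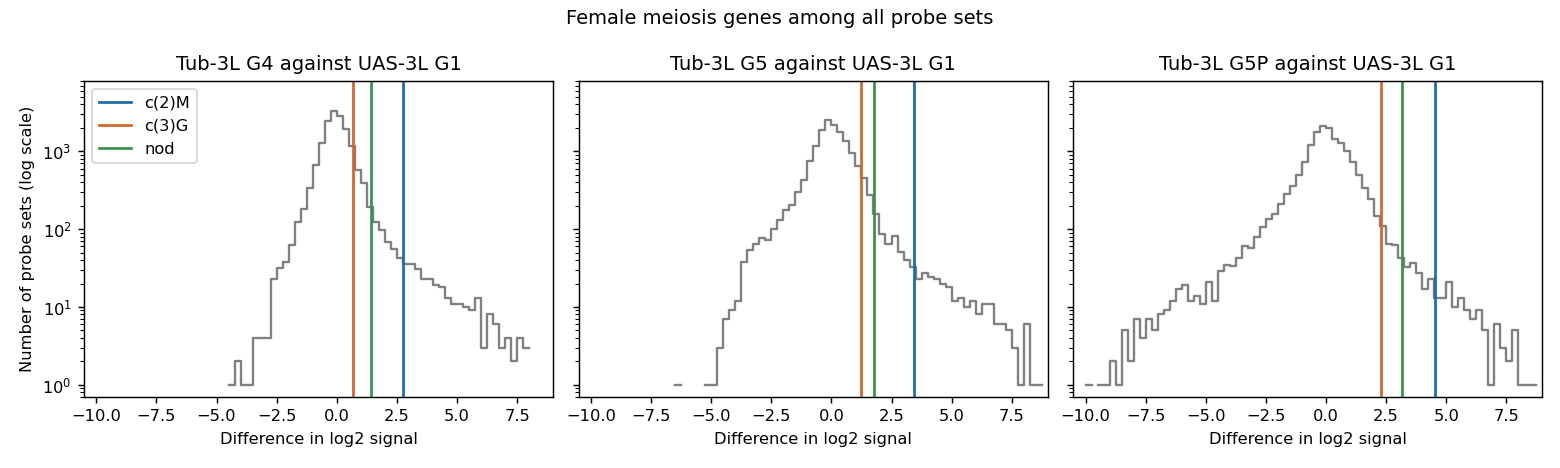
Number of probe sets, on a log scale, by the difference in log2 signal from UAS-3L G1 in bins of 0.25, for Tub-3L G4, Tub-3L G5 and Tub-3L G5P, over all 16322 probe sets (grey line). Vertical lines mark c(2)M (2.77, 3.44 and 4.54), c(3)G (0.69, 1.22 and 2.30) and nod (1.42, 1.77 and 3.16), all to the right of the peak.

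In the first 2 generations none of the 3 genes was misregulated, against 1.23% of probe sets upwards and 1.72% downwards in Tub-3L G1, and 3.38% upwards and 2.24% downwards in Tub-3L G2. None had an unadjusted p under 0.05 in limma in either comparison, and the methods' t-test also called 0 upwards. The differences from UAS-3L G1 in Tub-3L G1 were 0.24 for c(2)M, -0.33 for c(3)G and 0.23 for nod. Their 95% confidence intervals reached from -0.12 to 0.61 for c(2)M, from -0.85 to 0.19 for c(3)G and from -0.13 to 0.58 for nod, which leaves room for changes below 2-fold. For Tub-3L G2 the intervals were -0.27 to 0.46, -0.22 to 0.81 and -0.53 to 0.18 for the same genes.

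**Figure D3:**
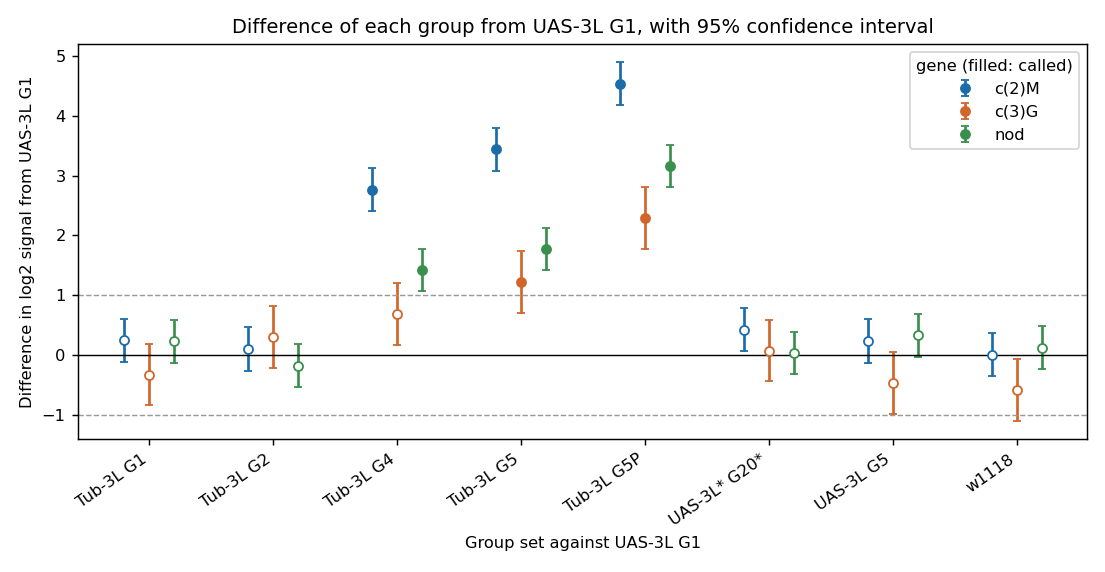
Difference in log2 signal of each group from UAS-3L G1 for c(2)M, c(3)G and nod, with 95% confidence intervals from limma (n = 2 arrays per group). Filled points are misregulated (adjusted p under 0.05 and at least 2-fold), open points are not, and dashed lines mark 2-fold. Filled points occur only in Tub-3L G4, G5 and G5P.

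The step from G2 to G4 was the first between successive Tub-3L groups that passed the test for c(2)M and nod. In Tub-3L G4 against Tub-3L G2, c(2)M was higher by 2.67, or 6.35-fold (adjusted p = 1.67e-07), and nod by 1.60, or 3.02-fold (limma, adjusted p = 1.19e-05). c(3)G differed by 0.39 (adjusted p = 0.235, interval -0.13 to 0.91). Thus 2 of 3 genes were misregulated upwards in this step, where 6.2% of probe sets were. No array was made from generation 3, so the step covers 2 generations. The methods' t-test after Benjamini-Hochberg adjustment gave an adjusted p of 0.0687 for nod and left 1 of 3 called. With signals floored at the lower quartile of each array the difference of c(2)M was 0.38, less than the 0.67 of Tub-3L G5 against Tub-3L G4 and the 1.10 of Tub-3L G5P against Tub-3L G5 in that setting.

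Between Tub-3L G5 and Tub-3L G4, c(2)M rose by 0.67, or 1.59-fold (limma, adjusted p = 0.0121), which is 1 of 3 genes where 13.9% of probe sets rose. c(3)G differed by 0.54 (adjusted p = 0.124) and nod by 0.36 (adjusted p = 0.137). None of the 3 reached 2-fold in this step, where 0.337% of probe sets were misregulated upwards, though all 3 had an unadjusted p under 0.05. Between Tub-3L G2 and Tub-3L G1, 0 of the 3 genes were misregulated in limma or by the methods' t-test, against 2.71% of probe sets upwards and 2.4% downwards, and 2 had an unadjusted p under 0.05. The differences were -0.14 for c(2)M, 0.63 for c(3)G (adjusted p = 0.0623) and -0.40 for nod (adjusted p = 0.0784).

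The larvae with melanotic tumors were then compared with the larvae of the same generation without the phenotype. In Tub-3L G5P against Tub-3L G5, all 3 genes were misregulated upwards, where 2.88% of probe sets were misregulated upwards and 10.5% downwards. nod was higher by 1.39, or 2.62-fold (adjusted p = 2.69e-05), the 59th largest difference among the 16322 probe sets. c(2)M was higher by 1.10, or 2.14-fold (adjusted p = 1.82e-04), and c(3)G by 1.07, or 2.11-fold (limma, adjusted p = 0.00232). The calls of c(2)M and c(3)G lie just past 2-fold. With each array scaled to RpLP0, a ribosomal protein gene, their differences were 0.99 and 0.96, and that of c(3)G was 0.99 without Tub-3L G5P replicate 1. The methods' t-test after Benjamini-Hochberg adjustment gave c(3)G an adjusted p of 0.0505.

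To ask whether the result depended on the generation of the control, Tub-3L G5 and Tub-3L G5P were also compared with UAS-3L G5. In Tub-3L G5, c(2)M was higher by 3.21, c(3)G by 1.69 and nod by 1.45 (limma, adjusted p of 6.01e-05 or less), so 3 of 3 genes were misregulated upwards, where 12.2% of probe sets were. The methods' t-test after Benjamini-Hochberg adjustment left 1 of 3, c(2)M, with an adjusted p of 0.0813 for c(3)G and 0.0749 for nod. In Tub-3L G5P the differences were 4.31, 2.76 and 2.84 for the same genes (adjusted p of 6.04e-07 or less), again 3 of 3, where 14.1% of probe sets were misregulated upwards. With signals floored at the lower quartile of each array, c(2)M was higher by 1.12 in Tub-3L G5 and by 2.22 in Tub-3L G5P. In UAS-3L G5 against UAS-3L G1, 0 of the 3 were misregulated in limma or by the methods' t-test, and none had an unadjusted p under 0.05, against 1% of probe sets upwards and 0.711% downwards. The differences were 0.23 for c(2)M, -0.47 for c(3)G (adjusted p = 0.225) and 0.33 for nod (adjusted p = 0.217). For c(3)G, whose signal was lower in UAS-3L G5 than in UAS-3L G1, the difference in Tub-3L G4 was 1.15 when UAS-3L G5 was the control (adjusted p = 0.00174).

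The difference between larvae with and without the driver was itself larger in generation 5 than in generation 1. The driver-related difference in generation 5, Tub-3L G5 minus UAS-3L G5, exceeded that in generation 1, Tub-3L G1 minus UAS-3L G1, by 2.96 for c(2)M (adjusted p = 7.59e-07), 2.02 for c(3)G (adjusted p = 3.41e-04) and 1.22 for nod (limma, adjusted p = 8.88e-04). All 3 genes passed this test upwards, as did 22.3% of probe sets. The value of c(2)M was 1.07 with signals floored at the lower quartile of each array, below those of c(3)G and nod.

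In UAS-3L* G20*, described in the study as larvae after removal of the driver, the 3 transcripts were low. In UAS-3L* G20* against Tub-3L G5, c(2)M was lower, with a difference of -3.02 (adjusted p = 1.60e-08), as were c(3)G with -1.15 (adjusted p = 0.00123) and nod with -1.74 (limma, adjusted p = 1.83e-06). This makes 3 of 3 genes misregulated downwards, where 12.3% of probe sets were. The floored difference of c(2)M was -1.10. For each gene, as for 40.2% of probe sets, both arrays of UAS-3L* G20* were below both arrays of Tub-3L G5.

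Against UAS-3L G5, UAS-3L* G20* differed by 0.19 for c(2)M (interval -0.17 to 0.55), 0.54 for c(3)G (0.02 to 1.06) and -0.29 for nod (-0.65 to 0.06). Both limma and the methods' t-test called 0 of the 3 genes, and 0% of probe sets passed in either direction, although c(3)G had an unadjusted p of 0.0418. Against UAS-3L G1 the differences in UAS-3L* G20* were 0.42 for c(2)M (adjusted p = 0.125), 0.07 for c(3)G and 0.03 for nod. In that comparison 0 of 3 genes were misregulated, against 0.882% of probe sets upwards and 0.778% downwards, and c(2)M had an unadjusted p of 0.027. w1118 differed from UAS-3L G1 by -0.59 for c(3)G (unadjusted p = 0.0295, adjusted p = 0.0869), 0.00 for c(2)M and 0.12 for nod, so 0 of 3 were misregulated, against 2.36% of probe sets upwards and 1.85% downwards.

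The groups were then ordered by the mean level of each gene, and neighbours in that order were compared. Since the order was set by the means themselves, a small step between neighbours does not show that groups were alike. For c(2)M the 6 lowest groups, from UAS-3L G1 with a mean of 2.08 to UAS-3L* G20* with 2.50, did not differ between neighbours (adjusted p of 0.492 or more), and each step above them passed the test. For nod the 6 lowest groups ran from Tub-3L G2 with a mean of 4.93 to UAS-3L G5 with 5.44. No difference between neighbours among them passed the test (adjusted p of 0.445 or more). The ends of this run differed more, by -0.51 in Tub-3L G2 against UAS-3L G5, which is short of 2-fold. Above these 6 groups, Tub-3L G4 exceeded UAS-3L G5 and Tub-3L G5P exceeded Tub-3L G5, but the step between Tub-3L G5 and Tub-3L G4 did not pass. For c(3)G, the order ran from w1118 with a mean of 4.68 through UAS-3L G5, Tub-3L G1, UAS-3L G1, UAS-3L* G20*, Tub-3L G2, Tub-3L G4 and Tub-3L G5 to Tub-3L G5P with 7.57, and only the step from Tub-3L G5 to Tub-3L G5P passed between neighbours (adjusted p = 0.00232).

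Over the 9 group means, the levels of c(2)M and nod had a Pearson r of 0.976, those of c(2)M and c(3)G 0.932, and those of c(3)G and nod 0.914. Spearman's rho was 0.817, 0.767 and 0.483 for the same pairs. It depends on the order of the lower groups, which is uncertain, since no step between neighbours among them passed the test. These values are descriptions over 9 groups, and the genes of a pair were measured on the same arrays.

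The genes whose levels were most like those of each member were sought among 661 named genes that varied over the group means (SD of at least 0.5). For c(2)M they were fs(1)Ya with a Pearson r of 0.996, del with 0.996, gwl with 0.994, Orc1 with 0.992 and APC7 with 0.991. fs(1)Ya encodes a nuclear envelope protein that the egg supplies for the first embryonic divisions, del a protein of piRNA clusters in the germline, gwl the Greatwall kinase of mitosis and meiosis, Orc1 a subunit of the origin recognition complex, and APC7 a subunit of the anaphase-promoting complex. fs(1)Ya had a log2 signal of 7.93 and 7.69 in Tub-3L G5P, against 2.95 and 2.67 in UAS-3L G1, and was 32.1-fold higher (limma, adjusted p = 2.58e-09). Like c(2)M, it was near the floor of the array without the driver.

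For nod the nearest genes were dah with a Pearson r of 0.998, Prat with 0.995, Orc1 with 0.993, dnk with 0.992 and CG33172 with 0.988. dah is needed for the membranes of the early embryo, Prat encodes an enzyme of purine synthesis and dnk a deoxynucleoside kinase. dah was higher by 3.26 in Tub-3L G5P against UAS-3L G1, or 9.61-fold (adjusted p = 4.75e-09), which is close to the 8.96-fold of nod. c(3)G was most like Ripalpha with 0.985, raptor with 0.981, Tlk with 0.974, Su(var)3-7 with 0.971 and Cpsf160 with 0.968. Su(var)3-7 encodes a protein of heterochromatin, Tlk a chromatin kinase, raptor a subunit of the TOR complex and Cpsf160 a factor of messenger RNA cleavage. c(2)M ranked as number 17 for nod, and nod as number 18 for c(2)M, while c(3)G ranked as number 93 for c(2)M. These lists depend on the measure. By Spearman's rho the nearest 5 genes kept 1 of the 5 for c(2)M (Orc1), 2 for c(3)G (Ripalpha and Cpsf160) and 2 for nod (Prat and CG33172), and by Pearson's r after centring of the arrays on their medians they kept 4, 4 and 5.

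**Figure D4:**
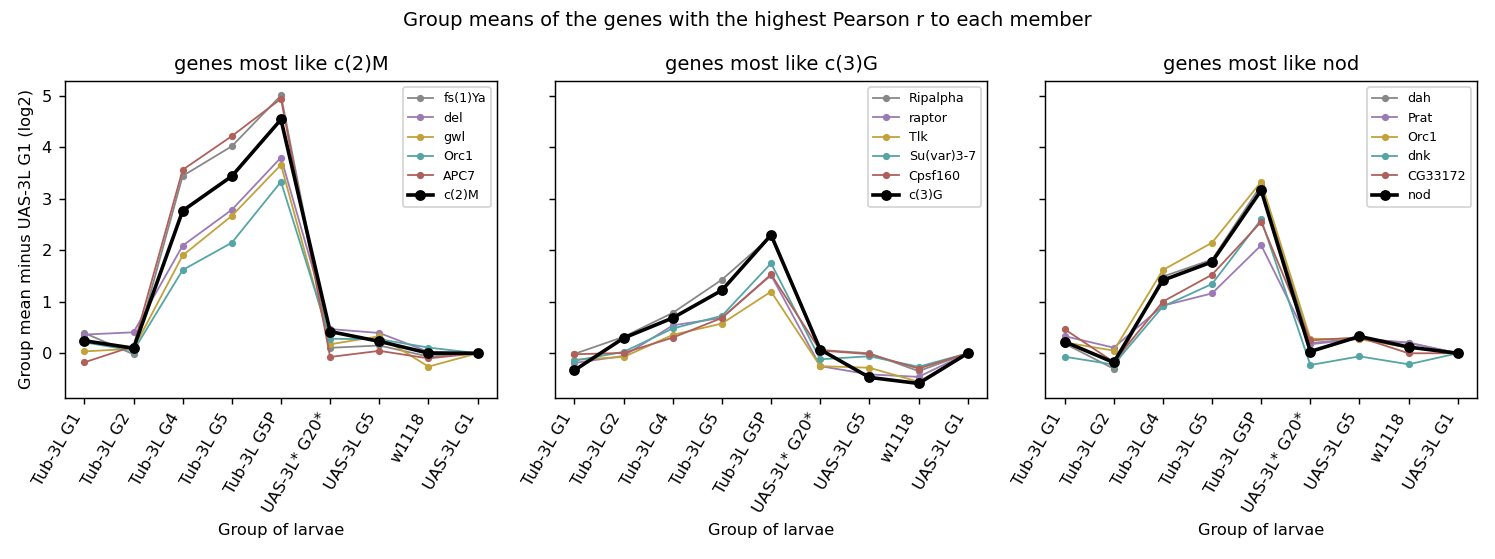
Group means on the log2 scale minus the mean of UAS-3L G1, for each member (black) and the 5 named genes with the highest Pearson r to it over the 9 group means (colours), with the larval groups along the horizontal axis. In Tub-3L G5P the genes nearest to c(2)M were 3.33 to 5.0 above UAS-3L G1, those nearest to nod 2.10 to 3.33, and those nearest to c(3)G 1.20 to 2.27.

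Other genes were then examined through 4 lists of meiosis genes and 1 list of kinesins, which also holds kinesins of mitosis and transport. They hold 28 different genes that are named on the array, the 3 members included, since nod and ncd stand in 2 lists each. Most list genes were not named. The named share was 4 of 14 genes for the synaptonemal complex and meiotic cohesion and 8 of 35 for recombination and repair. It was 7 of 33 for the spindle and segregation, 6 of 28 for the oocyte cell cycle and egg activation, and 5 of 26 for kinesins. The plot of the 28 named genes by group shows each of them.

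**Figure D5:**
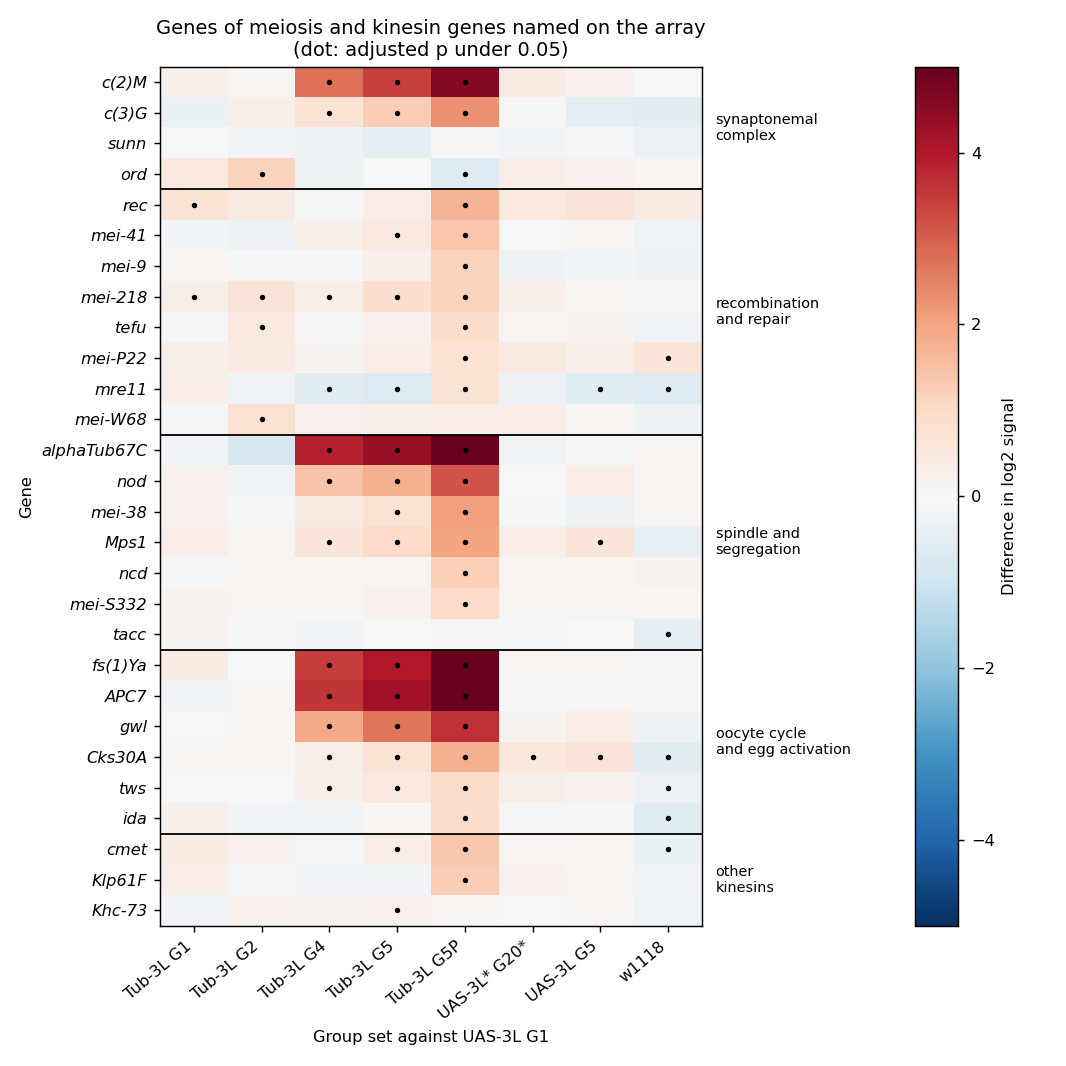
Difference in log2 signal from UAS-3L G1 (colour, red for higher and blue for lower, with the scale ending at 5 in both directions) for the 28 genes of the 4 meiosis lists and the kinesin list (rows) in each group (columns). Dots mark an adjusted p under 0.05 in limma. In Tub-3L G5P, 23 of the 28 genes rose and 1 fell.

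Of the 28 genes, 23 rose and 1 fell in Tub-3L G5P against UAS-3L G1, with a median difference of 1.21. Among all probe sets 33.6% rose and 28.7% fell, with a median of 0.01. In Tub-3L G4, 11 rose and 1 fell, with a median of 0.21 (22.6% and 21% of probe sets, median -0.03), and in Tub-3L G5, 15 rose and 1 fell, with a median of 0.34 (31.7% and 25.9% of probe sets, median 0.02). In Tub-3L G5P against Tub-3L G5, 21 rose and 1 fell, with a median of 0.90 (26.4% and 26.3% of probe sets, median 0.01). The list genes come from the 2249 genes named on the array. Against UAS-3L G1 these named genes had medians of 0.03 in Tub-3L G4, 0.09 in Tub-3L G5 and 0.11 in Tub-3L G5P. Without the 3 members, 8 of the other 25 genes of the lists rose in Tub-3L G4, 12 in Tub-3L G5 and 20 in Tub-3L G5P against UAS-3L G1. In Tub-3L G5P against Tub-3L G5 it was 18 of 25. In Tub-3L G5 against UAS-3L G5, 7 of the 25 rose and 0 fell, with a median of 0.13. Among all probe sets 29.8% rose and 27.5% fell in that comparison, with a median of -0.02.

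The other named genes of the list of the synaptonemal complex and meiotic cohesion were not higher in Tub-3L G5P. ord, which is required for sister chromatid cohesion in meiosis, had a log2 signal of 4.26 and 3.52 in Tub-3L G5P, against 4.31 and 4.73 in UAS-3L G1, and fell by 0.63 (limma, adjusted p = 0.0155), a difference that did not pass after quantile normalisation. Its highest signal was in Tub-3L G2, with 5.58 and 5.66, where it rose by 1.10, or 2.15-fold (adjusted p = 0.00142). sunn, which encodes a stromalin-like protein of meiotic cohesion, had 3.18 and 3.36 in Tub-3L G5P and 2.92 and 3.78 in UAS-3L G1, a difference of -0.08 (adjusted p = 0.839). Both lay below or near the lower quartile of the arrays in Tub-3L G5P and UAS-3L G1, while ord lay above it in Tub-3L G2. This list thus had 2 of 4 genes higher and 1 lower in Tub-3L G5P, and 2 higher and 0 lower in Tub-3L G4 and Tub-3L G5, the 2 higher ones being c(2)M and c(3)G.

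Of the 8 named genes of meiotic recombination and repair, 7 rose in Tub-3L G5P against UAS-3L G1 and 0 fell, with a median difference of 1 on the log2 scale. In Tub-3L G4 it was 1 higher and 1 lower, and in Tub-3L G5 2 higher and 1 lower, with medians of 0.12 and 0.29, where 22.6% of all probe sets rose in Tub-3L G4, 31.7% in Tub-3L G5 and 33.6% in Tub-3L G5P. rec, an MCM-related gene required for crossing over, had a log2 signal of 5.90 and 5.78 in Tub-3L G5P, against 4.24 and 4.68 in Tub-3L G5, and differed between them by 1.38, or 2.60-fold (limma, adjusted p = 1.77e-04). On 1 of the 2 Tub-3L G5 arrays rec lay below the lower quartile, so that its fold is uncertain. Its group means were 4.13 in UAS-3L G1, 4.80 in Tub-3L G1 and 4.75 in UAS-3L G5. mre11, which encodes a nuclease of double-strand break repair, had 7.43 and 7.20 in Tub-3L G5P, against 5.89 and 6.02 in Tub-3L G5, a difference of 1.36, or 2.57-fold (adjusted p = 1.89e-06). It had 6.55 and 6.69 in UAS-3L G1, 6.82 and 7.10 in Tub-3L G1, and 5.99 and 6.13 in UAS-3L G5. The difference of mre11 thus includes a lower level in Tub-3L G5 than in UAS-3L G1.

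The same direction was seen for the checkpoint kinase genes mei-41 and tefu and for mei-9, an endonuclease gene, which were higher in Tub-3L G5P than in Tub-3L G5 by 0.88, 0.65 and 0.91 (adjusted p of 9.95e-04 or less). mei-W68, the gene of the Spo11 enzyme that makes the breaks for recombination, differed by 0.08 in that comparison (adjusted p = 0.749) and by 0.32 in Tub-3L G5P against UAS-3L G1 (adjusted p = 0.144). mei-P22, its partner, differed by 0.36 (adjusted p = 0.14) and by 0.71 (adjusted p = 0.00646). In all, 6 of 8 genes rose and 0 fell in Tub-3L G5P against Tub-3L G5, where 26.4% of all probe sets rose. In Tub-3L G5 against UAS-3L G5, 1 of the 8 rose, mei-218, by 0.70 (adjusted p = 3.17e-05), where 29.8% of all probe sets rose.

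Among the 7 named genes of the meiotic spindle and of chromosome segregation, nod included, 3 rose in Tub-3L G4, 4 in Tub-3L G5 and 6 in Tub-3L G5P, and 0 fell, with medians of 0.44, 0.74 and 1.99 (22.6%, 31.7% and 33.6% of all probe sets rose in these groups). alphaTub67C, the maternal alpha-tubulin of the egg, had a log2 signal of 8.42 and 8.32 in Tub-3L G4, 8.90 and 8.83 in Tub-3L G5, and 9.55 and 9.72 in Tub-3L G5P, against 4.95 and 4.10 in UAS-3L G1. Its difference was 3.84 in Tub-3L G4, or 14.4-fold, and 5.11 in Tub-3L G5P, or 34.5-fold (limma, adjusted p of 2.35e-06 or less). On 1 of the 2 UAS-3L G1 arrays it lay below the lower quartile, so that its folds are uncertain.

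Other spindle genes differed mainly between Tub-3L G5P and the rest. ncd, which encodes a minus-end kinesin of the oocyte spindle, had a log2 signal of 7.21 and 7.38 in Tub-3L G5P and 6.29 and 6.22 in Tub-3L G5, against 5.94 and 6.29 in UAS-3L G1. It differed from UAS-3L G1 by 0.08 in Tub-3L G4 (adjusted p = 0.717), 0.14 in Tub-3L G5 (adjusted p = 0.453) and 1.18 in Tub-3L G5P (limma, adjusted p = 2.90e-05). mei-S332, the Drosophila shugoshin, which protects cohesion at centromeres, rose by 0.94 in Tub-3L G5P (adjusted p = 9.30e-05), with 0.21 in Tub-3L G5 (adjusted p = 0.231).

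mei-38, a spindle assembly gene, and Mps1, a checkpoint kinase gene needed in oocytes, were higher by 2.09 and 1.99 in Tub-3L G5P against UAS-3L G1, and by 0.74 and 0.96 in Tub-3L G5 (limma, adjusted p of 0.00895 or less). Mps1 was also higher by 0.62 in UAS-3L G5 (adjusted p = 0.0116). tacc, a gene of centrosomes and spindle poles, differed by -0.06 in Tub-3L G5P (adjusted p = 0.548).

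Of the 5 named kinesin genes, 1 passed the test in Tub-3L G4, nod itself, and the other 4 differed from UAS-3L G1 by -0.18 to 0.17. In Tub-3L G5P 4 of 5 rose and 0 fell, with a median of 1.25. Over all probe sets, 22.6% rose in Tub-3L G4 and 33.6% in Tub-3L G5P. Klp61F, the bipolar kinesin of the spindle, and cmet, the homolog of CENP-E at kinetochores, rose by 1.25 and 1.35 (limma, adjusted p of 1.21e-05 or less). Between Tub-3L G5P and Tub-3L G5, Klp61F was higher by 1.39, cmet by 1.01 and ncd by 1.04, beside the 1.39 of nod. Khc-73, a transport kinesin, differed by -0.14 in that comparison (adjusted p = 0.162).

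All 6 named genes of the oocyte cell cycle and egg activation list rose in Tub-3L G5P against UAS-3L G1, with a median of 2.72. In Tub-3L G4 and in Tub-3L G5, 5 of the 6 rose and 0 fell, with medians of 1.10 and 1.67, though 3 rose in Tub-3L G4 after centring of the arrays on their medians. The shares of all probe sets that rose were 22.6% in Tub-3L G4, 31.7% in Tub-3L G5 and 33.6% in Tub-3L G5P. gwl had a log2 signal of 8.47 and 8.41 in Tub-3L G4, 9.19 and 9.23 in Tub-3L G5, and 10.23 and 10.16 in Tub-3L G5P, against 6.59 and 6.49 in UAS-3L G1. APC7 had 7.17 and 7.16 in Tub-3L G4 and 8.65 and 8.43 in Tub-3L G5P, against 3.58 and 3.63 in UAS-3L G1. The arrays of neither gene overlapped between these groups, a separation whose share over all probe sets was not counted. The differences in Tub-3L G5P were 3.65 for gwl, or 12.6-fold, and 4.94 for APC7 (limma, adjusted p of 7.62e-10 or less). APC7 lay below the lower quartile of both UAS-3L G1 arrays, so that the size of its fold is uncertain.

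Cks30A, a partner of Cdk1 in female meiosis, rose by 0.67 in Tub-3L G5, but by 0.65 in UAS-3L G5 as well (adjusted p = 3.29e-04), and Tub-3L G5 differed from UAS-3L G5 by 0.02 (adjusted p = 0.816). In Tub-3L G5P against UAS-3L G5, Cks30A was higher by 1.15 (limma, adjusted p = 8.38e-08). tws, the gene of a phosphatase subunit, and ida, a further gene of the anaphase-promoting complex, rose in Tub-3L G5P by 0.93 and 0.92 (adjusted p of 6.26e-04 or less).

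Transcripts of the germline and of other cell types also differed between these groups, not all in the direction of the 3 genes. Their part in the result was not tested. In whole larvae, a change in the number of cells of a type and a change in the RNA of each cell cannot be told apart. Over all probe sets, 16.9% rose and 13.5% fell in Tub-3L G2, 22.6% rose and 21% fell in Tub-3L G4, 31.7% rose and 25.9% fell in Tub-3L G5, and 33.6% rose and 28.7% fell in Tub-3L G5P, all against UAS-3L G1. Between Tub-3L G5P and Tub-3L G5, 26.4% rose and 26.3% fell. The female germline list had 9 of its 54 genes named on the array. Of these 9 genes, 6 rose and 1 fell in Tub-3L G4, 6 rose and 0 fell in Tub-3L G5, and 5 rose and 1 fell in Tub-3L G5P, with medians of 2.09, 2.71 and 3.39. The mean log2 signal of these 9 genes was 7.75 on both arrays of Tub-3L G4, 8.21 to 8.22 in Tub-3L G5 and 8.41 to 8.47 in Tub-3L G5P, against 5.72 to 5.80 in UAS-3L G1. otu, which is required in the female germline, had a signal of 10.39 and 10.65 in Tub-3L G5P, against 2.53 and 3.32 in UAS-3L G1, and zpg, a gap junction gene of germ cells, had 9.13 and 9.03, against 2.56 and 2.66. Both were near the floor of the array without the driver, as c(2)M was.

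The follicle cell and egg coat list had 4 of 5 genes higher in Tub-3L G4 and in Tub-3L G5P and 5 of 5 in Tub-3L G5, and 0 lower, and between Tub-3L G5P and Tub-3L G5 it had 0 of 5 past the test in either direction. The 19 named genes of the testis list had 14 higher and 1 lower in Tub-3L G2, where none of the 3 members was misregulated, and 2 higher and 15 lower in Tub-3L G5P against Tub-3L G5, where all 3 members were higher. In Tub-3L G4 and G5 the testis list stood high along with the members. Its mean log2 signal was 7.09 to 7.10 in Tub-3L G4, 7.27 to 7.28 in Tub-3L G5 and 6.26 to 6.33 in Tub-3L G5P, against 6.06 to 6.19 in UAS-3L G1. Mst57Da, which stands in that list, is known from the male accessory gland. The 20 named genes of DNA replication had 11 higher in Tub-3L G4 and 18 higher in Tub-3L G5, in Tub-3L G5P and in Tub-3L G5P against Tub-3L G5, with 0 lower in each, and a median of 1.06 in the last comparison.

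Markers of larval and adult tissues and of developmental stage differed in the same groups, and their part in the result was not tested either. The 6 named glue protein genes of the larval salivary gland, which are made late in larval life, before the puparium forms, had a mean log2 signal of 8.82 to 8.92 in Tub-3L G4, 8.33 to 8.39 in Tub-3L G5 and 3.76 to 3.78 in Tub-3L G5P, against 10.98 to 11.06 in UAS-3L G1. All 6 fell in each of these groups. Of the 4 named genes of the list of larval serum proteins and the ecdysone response, all of them genes of nuclear receptors, 1 rose and 3 fell in each of Tub-3L G4, G5 and G5P. ftz-f1, which is known from the prepupal stage, was higher by 1.38 in Tub-3L G4, 1.70 in Tub-3L G5 and 2.34 in Tub-3L G5P (limma, adjusted p of 1.22e-06 or less), and by 0.65 in Tub-3L G5P against Tub-3L G5 (adjusted p = 4.56e-04). Hr3, EcR and Hr39 fell, by 1.74, 1.22 and 0.42 in Tub-3L G5P (adjusted p of 0.00372 or less). Genes of adult muscle, male accessory gland and adult eye had 4 of 6, 7 of 7 and 10 of 10 higher and 0 lower in Tub-3L G4. Between Tub-3L G5P and Tub-3L G5 they had 6 of 6, 7 of 7 and 5 of 10 lower and 0 higher, while c(2)M, c(3)G and nod were higher. In w1118 the 2 arrays differed in the mean signal of the adult eye list (5.09 and 6.43), and the spread between them enters the error of every comparison through the common fit.

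The gene models of the members have neighbours that could share signal. In the RefSeq annotation c(2)M overlaps CG5861, c(3)G overlaps Uros2, and pkm lies within nod, and none of these 3 genes was named on the array here. Of the next genes on either side, Acyp2, beside c(3)G, was named. It differed from UAS-3L G1 by 0.00 in Tub-3L G5 (adjusted p = 0.994) and by -0.40 in Tub-3L G5P (limma, adjusted p = 0.0047), where c(3)G rose.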

How the data were processed

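Log2 signals were deposited for each gene-level probe set, computed by the authors from the scanned arrays with RMA (RMA-sketch, core genes, default settings) in Affymetrix Expression Console 1.3. They were used as deposited for 16322 probe sets on 18 arrays. Another deposited table, of 9 averaged columns with no clear link to the groups, was left out. The methods compared groups by one-way analysis of variance in the Transcriptome Analysis Console, with a 2-fold threshold and unadjusted p, called here the methods' t-test.

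All 9 group means were fitted together with limma 3.58.1 (R 4.3.3), with 9 residual and 2.71 prior degrees of freedom, and adjusted over all probe sets of each comparison with the Benjamini-Hochberg method at 0.05. The number of arrays limits the precision. The members, the 17 gene lists and the tests were chosen with earlier results of these data known. Named were the members, the 5 genes most like each, all genes of the 4 meiosis lists and the kinesin list and the 4 genes of smallest p of other lists. For genes with several probe sets the brightest was used. RefSeq served for names and neighbours only. No source used here gives the build behind the array annotation. limma was tested on simulated data. Replicate numbers did not pair arrays.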

Additional observations from a re-analysis of the deposited data

Results flagged for a closer look

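The difference between larvae with and without the driver changed between generations for each of the 3 genes, by a test of the change itself. Tub-3L G5 minus UAS-3L G5 exceeded Tub-3L G1 minus UAS-3L G1 by 2.96 for c(2)M, 2.02 for c(3)G and 1.22 for nod on the log2 scale, with 95% confidence intervals of 2.45 to 3.48, 1.29 to 2.75 and 0.72 to 1.72 (limma, n = 2 arrays in each of 4 groups). For c(2)M the means behind it were 5.52 in Tub-3L G5 and 2.31 in UAS-3L G5, and 2.32 in Tub-3L G1 and 2.08 in UAS-3L G1. For c(3)G, 0.47 of the 2.02 comes from a lower mean in UAS-3L G5 than in UAS-3L G1. The difference of -0.33 in Tub-3L G1 against UAS-3L G1 also adds to it, and neither difference passed the test. With signals floored at the lower quartile of each array, a setting chosen after the data were seen, the value of c(2)M was 1.07.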

How the results depend on the processing

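Of 1131 recomputed values for the 3 genes and their counts, 1087 were taken as kept. For a difference this means that its direction and its side of the thresholds were the same. For a count of called genes a small change was allowed, so that the loss of 1 gene from 3 was taken as kept. With UAS-3L G5 as the control, c(3)G reached 1.15 in Tub-3L G4, and differences that had not passed the test changed sign: c(2)M to -0.13 in Tub-3L G2 and -0.23 in w1118, c(3)G to 0.14 in Tub-3L G1, and nod to -0.10 in Tub-3L G1, -0.29 in UAS-3L* G20* and -0.21 in w1118. With both UAS-3L groups as the control these were -0.017 and -0.11 for c(2)M in Tub-3L G2 and w1118, and -0.13 and -0.042 for nod in UAS-3L* G20* and w1118. Centring each array on its median gave -0.0046 and -0.030 for c(2)M in Tub-3L G2 and w1118 and -0.017 for nod in UAS-3L* G20*, which was -0.019 after quantile normalisation. Scaling to RpLP0 gave -0.087 for c(2)M in w1118, and 0.99 for c(2)M and 0.96 for c(3)G in Tub-3L G5P against Tub-3L G5, leaving 1 gene called.

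The floor at the lower quartile gave c(2)M 0.49 in Tub-3L G4, 0.38 in Tub-3L G4 against Tub-3L G2 and 0.055 in Tub-3L G2 against Tub-3L G1, so that 1 gene was called in each Tub-3L G4 comparison. Leaving out the dimmest 25% of probe sets removed c(2)M itself, and again 1 was called. Without a fold threshold c(3)G in Tub-3L G4 (0.69) and c(2)M in Tub-3L G5 against Tub-3L G4 (0.67) passed, the last raising its count to 1. The methods' t-test after Benjamini-Hochberg lost c(3)G (1.69, adjusted p = 0.0813) and nod (1.45, adjusted p = 0.0749) in Tub-3L G5 against UAS-3L G5, c(3)G in Tub-3L G5P against Tub-3L G5 (1.07, adjusted p = 0.0505) and nod in Tub-3L G4 against Tub-3L G2 (1.60, adjusted p = 0.0687), and called 1 gene in the first and the last of these. The cause of these changes was not tested.

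With 1 array left out, c(3)G in Tub-3L G5P against Tub-3L G5 ranged from 0.99 to 1.16. Sign changes among differences that had not passed the test lay in ranges of -0.32 to 0.032 (c(2)M, Tub-3L G2 against Tub-3L G1), -0.014 to 0.21 (c(2)M, Tub-3L G2), -0.026 to 0.41 (c(2)M, UAS-3L* G20* against UAS-3L G5), -0.12 to 0.13 (c(2)M, w1118), -0.034 to 0.18 (c(3)G, UAS-3L* G20*), -0.12 to 0.19 (nod, UAS-3L* G20*) and -0.00053 to 0.24 (nod, w1118). A lone array is assumed to vary like the other groups.

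With the replicate number as a block, which the labels do not describe as a shared batch, no call of the 3 genes changed. Deviations of same-numbered arrays correlated between -0.06 and 0.04 over 36 pairs of groups, and the difference in Tub-3L G5P was 4.54 for c(2)M, 2.30 for c(3)G and 3.16 for nod under the block. Centring shifted the median of all probe sets by -0.14 in Tub-3L G4 and -0.19 in Tub-3L G5, so that 47.5% and 42.6% of calls against UAS-3L G1 were upwards, against 60.9% and 56% as deposited. In Tub-3L G5P against Tub-3L G5 it was 40.3% with centring and 10.2% with RpLP0, against 21.5%. Signal over background limits c(2)M, which was at percentile 1.49 to 6.39 of its array in 6 groups.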
